A study of Arabidopsis thaliana with 12 samples.

Results

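Loss of the Dicer enzyme DCL4 was examined in Arabidopsis thaliana seedlings grown with nitrogen. Small RNA libraries from the mutant dcl4-2 on MS medium were set against libraries from the wild-type accession Col-0 on the same medium, 3 libraries a side, which is 6 of the 12 libraries of the series. The members were chosen by their genotype and medium labels and by no measured value. The other 6 libraries came from the same genotypes on MS without nitrogen (MS-N) and entered only the shared estimate of spread and the tests of whether the genotype difference depended on nitrogen. All groups were whole seedlings, 10 days old, collected at 15:00, and a library is 1 biological replicate per the labels. The labels give no genotype difference from Col-0 other than dcl4-2, and the comparison holds no complemented line and no second dcl4 allele. In whole seedlings, fewer cells of a type and less small RNA per cell cannot be told apart.

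Dicer-like enzymes cut double-stranded RNA into small RNAs of a set length. DCL1 releases most microRNAs from hairpin precursors. DCL4 makes 21-nt small interfering RNAs (siRNAs), including the trans-acting siRNAs (tasiRNAs) that arise after a microRNA has cleaved a TAS transcript and the polymerase RDR6 has copied it. DCL2 makes 22-nt siRNAs from some of the same substrates, and DCL3 makes the longer siRNAs of the DNA methylation pathway. A 22-nt guide can start a further round of siRNA production on its target, and the title of the series names 22-nt siRNAs as a means of translational repression and stress adaptation.

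Reads of 21 and 22 nt were given in 14 annotation classes per library, as rpm (reads scaled to the size of the library), and at 32420 loci as a normalized mean per group. The libraries of the whole series held 4515437 to 7270637 reads, and the 6 on MS held 5887818 to 7270637. The locus means were sums of whole reads, so the reads of each library could be recovered for all but 29 loci at 21 nt and 8 loci at 22 nt on MS. These loci include the most abundant microRNA genes and carried 82.1% of the 21-nt sum in dcl4-2 and 71.3% in Col-0, and 25.8% of the 22-nt sum in dcl4-2 and 17.4% in Col-0. Recovered libraries 1, 2 and 3 of a group have no replicate label, and the number does not link the lengths or the class table. Locus values are "normalized reads" (reads divided by the authors' size factor), and a locus passed the test at an adjusted p under 0.05 in limma with Benjamini-Hochberg adjustment over all loci tested. Folds are ratios of group means, log2 differences are on the log2(normalized reads + 1) scale, and all adjusted p values below are from limma.

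DCL4 itself (AT5G20320, chromosome 5) gave few small RNA reads. At 21 nt it had 1.06, 1.12 and 1.16 normalized reads in the dcl4-2 libraries and 1.72, 1.87 and 5.17 in the Col-0 libraries. At 22 nt it had 1.02, 1.03 and 1.07 in dcl4-2 and 4.39, 4.07 and 5.23 in Col-0. The groups did not overlap at either length, and neither difference passed the test (adjusted p = 0.756 at 21 nt and 0.212 at 22 nt). Small RNA reads on the gene do not measure its messenger, so they check the genotype label only weakly.

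The tasiRNA class changed length. Its 21-nt reads were 1297, 1034 and 1053 rpm in dcl4-2, against 24358, 30874 and 23904 rpm in Col-0, a 23.4-fold fall (log2 difference -4.55, adjusted p = 1.52e-11). Its 22-nt reads were 5709, 5523 and 5665 rpm in dcl4-2, against 985, 1177 and 901 rpm in Col-0, a 5.52-fold rise (log2 difference 2.47, adjusted p = 1.45e-10). The lowest dcl4-2 library at 22 nt stood well above the highest Col-0 library, and the reverse held at 21 nt. The 22-nt share of the tasiRNA reads was 83.3% ± 1.62 in dcl4-2 and 3.73% ± 0.138 in Col-0 (SD, n = 3 each). The ratio of 22-nt to 21-nt reads rose by 7.02 on the log2 scale (adjusted p = 2.71e-14). Of the 14 class ratios 5 passed the test, all of them higher in dcl4-2 (35.7%), namely tasiRNA, exon, intergenic, 3′ untranslated region and pseudogene. The intergenic and pseudogene ratios did not pass in a fit of the 6 MS libraries alone (adjusted p = 0.0656 and 0.0791, the highest over their alternatives). The gain at 22 nt, in rpm, was smaller than the loss at 21 nt.

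Across the 28 class values (14 classes at 2 lengths) 18 passed the test, or 64.3%, with 5 higher (17.9%) and 13 lower (46.4%). With 3 libraries a side the two-sided exact permutation test of any single class cannot go below p = 0.1. The exon class fell 6.07-fold at 21 nt, to 6159, 5529 and 5730.4 rpm in dcl4-2, against 33031, 40031 and 32646 rpm in Col-0 (adjusted p = 1.45e-10). At 22 nt exon reads were 11485, 10662 and 10908 rpm in dcl4-2 and 8749.9, 8599 and 8088 rpm in Col-0, 1.30-fold higher (adjusted p = 0.00026), a call that ended when values were taken relative to the microRNA reads (adjusted p = 0.220, with a range over the alternatives of 0.000178 to 0.220).

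The tasiRNA reads are counted in the exon class too. With them taken out, exon reads were 4678 ± 183 rpm in dcl4-2 and 8857 ± 262 rpm in Col-0 at 21 nt, 1.89-fold lower (SD, n = 3 each). At 22 nt the remainder was 5386 ± 342 rpm in dcl4-2 and 7458 ± 290.4 rpm in Col-0, 1.38-fold lower, without overlap at either length. The 22-nt share of this remainder was 53.5% ± 0.737 in dcl4-2 and 45.7% ± 1.34 in Col-0. The shift towards 22 nt in exon reads outside the tasiRNA annotation was therefore much smaller than in the whole exon class, where the 22-nt share was 65.5% ± 0.383 in dcl4-2 and 19.5% ± 1.66 in Col-0.

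Smaller falls spread over other classes. At 21 nt, reads of promoters were 3635 ± 92.6 rpm in dcl4-2 and 4821 ± 151 rpm in Col-0, 1.33-fold lower (SD, n = 3 each). Introns, tRNAs, both untranslated regions and pseudogenes fell by 1.18-fold to 1.30-fold at this length, and intergenic regions fell to 22242 ± 1386 rpm in dcl4-2, against 28666 ± 1331 rpm in Col-0. At 22 nt, promoters fell to 6261 ± 606 rpm in dcl4-2, against 8825 ± 772 rpm in Col-0, 1.41-fold lower. Introns, tRNAs and 5′ untranslated regions fell by 1.24-fold to 1.28-fold at 22 nt. The 3′ untranslated regions fell 1.26-fold at 21 nt and did not pass at 22 nt (adjusted p = 0.222), and their 22-nt share was 63.2% ± 0.258 in dcl4-2 and 55.4% ± 0.670 in Col-0. Reads of rRNAs, snRNAs and snoRNAs, which are mostly fragments of abundant RNAs, passed the test at neither length. The snoRNA class had 255, 157 and 158 rpm at 22 nt in dcl4-2 and 224, 213 and 243 rpm in Col-0, and it was lower without dcl4-2 replicate 1 at both lengths (adjusted p = 0.00762 at 21 nt and 0.000368 at 22 nt). Reads of rRNAs at 22 nt passed without Col-0 replicate 2.

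The microRNA class rose at both lengths as a share of the library. At 21 nt it had 118907, 112626 and 103529 rpm in dcl4-2 and 85069, 94134 and 77756 rpm in Col-0, 1.30-fold higher (adjusted p = 0.00208). Its 22-nt reads were 12474, 11209.7 and 10845 rpm in dcl4-2 and 9787, 9711 and 8812 rpm in Col-0, 1.22-fold higher (adjusted p = 0.00459). Its 22-nt share was 9.34% ± 0.252 in dcl4-2 and 9.95% ± 0.522 in Col-0 and did not pass the test. Without the microRNA class, the 21-nt reads of the other non-overlapping classes summed to 51346 ± 3491 rpm in dcl4-2 and 91684 ± 5573 rpm in Col-0, while the whole 21-nt sums of 163033 ± 11008 rpm in dcl4-2 and 177337 ± 13686 rpm in Col-0 overlapped.

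The intergenic and transposable element classes divided the dcl4-2 libraries. Intergenic 22-nt reads were 26469, 66132 and 57302 rpm in dcl4-2, against 30959.9, 31167 and 28709 rpm in Col-0. Replicate 1 of dcl4-2 lay below all Col-0 libraries and the other 2 lay far above them, so that the 1.65-fold difference (adjusted p = 0.0499) had an exact permutation p of 0.4. Without that replicate the difference was 2.04-fold (adjusted p = 8.71e-08), and in a fit of the 6 MS libraries alone it did not pass (adjusted p = 0.157, with a range over the alternatives of 8.71e-08 to 0.270). Transposable element reads at 21 nt were 17992, 10067 and 10354 rpm in dcl4-2 and 13638, 17127 and 13418 rpm in Col-0, and the class passed at neither length. Without replicate 1 of dcl4-2 it was lower at both lengths (adjusted p = 0.000922 at 21 nt and 0.0112 at 22 nt, with ranges over the alternatives of 0.000922 to 0.642 and 0.00381 to 0.683). The 22-nt share of all non-overlapping classes was 33.4%, 42.2% and 41.5% in dcl4-2 and 33.3%, 32.2% and 32.8% in Col-0. With intergenic reads left out it was 27.4% to 28.5% in dcl4-2 and 26.8% to 27.98% in Col-0, and the groups overlapped.

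**Figure D1:**
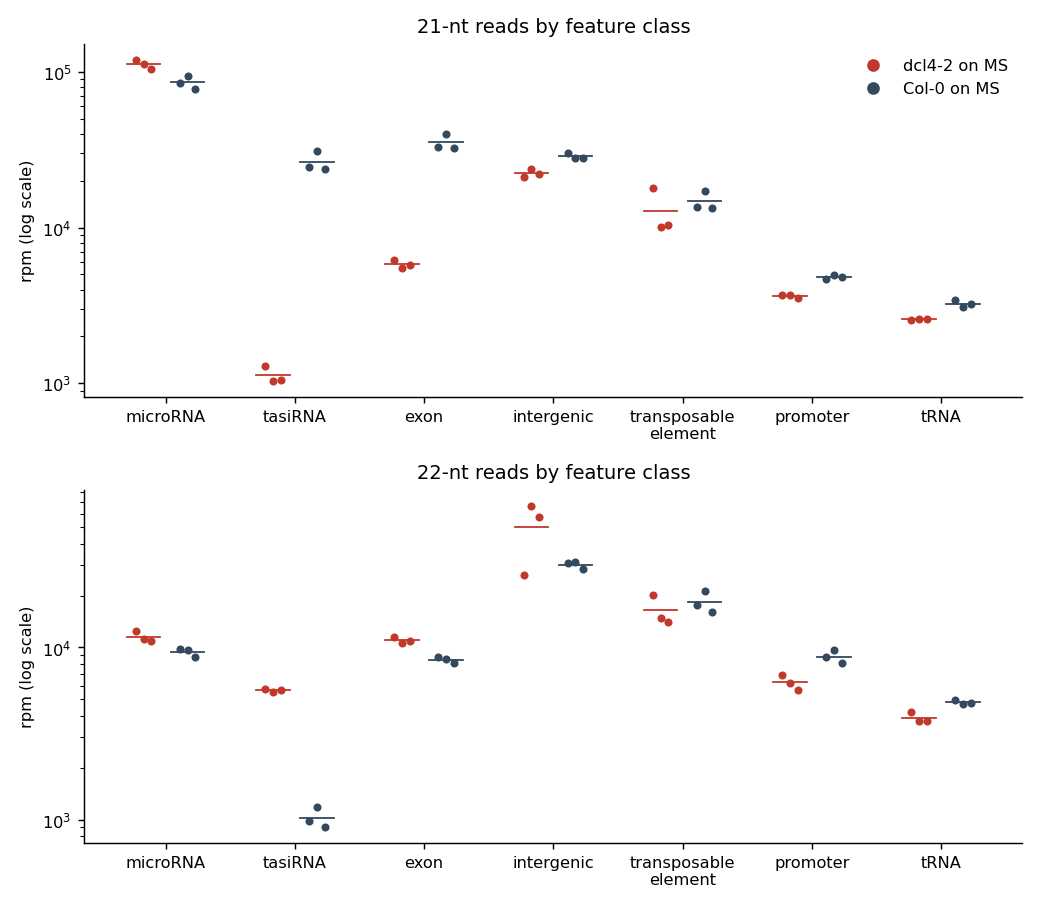
Reads of 7 annotation classes at 21 nt (upper panel) and 22 nt (lower panel) in rpm on a log axis, with a point for each library and a line at each group mean, dcl4-2 left of Col-0. The tasiRNA points of the groups change places between the panels, with means of 1128 rpm in dcl4-2 and 26379 rpm in Col-0 at 21 nt and of 5632 rpm in dcl4-2 and 1021 rpm in Col-0 at 22 nt, and the intergenic points of dcl4-2 at 22 nt spread from 26469 to 66132 rpm.

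At single loci, 247 of the 19386 tested at 21 nt passed (1.27%), 97 higher (0.5%) and 150 lower (0.774%). At 22 nt 292 of 20148 passed (1.45%), 175 higher (0.869%) and 117 lower (0.581%). The kinds of locus differed between the directions. At 21 nt, 130 of 15040 protein-coding loci fell (0.864%) and 18 rose (0.12%), while 41 of 122 microRNA genes rose (33.6%) and 1 fell (0.82%). At 22 nt, 53 of 15601 protein-coding loci rose (0.34%) and 89 fell (0.57%), and 98 of 4115 pseudogenes rose (2.38%) and 24 fell (0.583%). The protein-coding loci that fell at 21 nt summed to 1061, 1070 and 1257 normalized reads in dcl4-2 and 20962, 19754 and 19186 in Col-0. These loci were selected as lower in the same libraries, so the direction of the gap follows from the selection. The 23 PPR genes listed below, not all of them protein-coding, summed to 15931 to 17460 normalized 21-nt reads in Col-0.

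Scaling bore on these directions. When every library was given the same total of recovered microRNA reads, the median log2 difference over all loci was -0.64 at 21 nt and -0.24 at 22 nt, where with the authors' size factors it was -0.08 and -0.01. The split was then 28 higher and 1986 lower at 21 nt, and 137 higher and 310 lower at 22 nt. In the 6 MS libraries alone 1.65% of loci passed at 21 nt and 1.32% at 22 nt. Without recovered library 3 of dcl4-2 the 22-nt split was 136 higher and 158 lower.

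The largest losses of 21-nt reads fell on a group of pentatricopeptide repeat (PPR) genes, most of them on chromosome 1. PPR proteins bind organelle RNA, and RPF2 and RPF3 of this group take part in processing the ends of mitochondrial transcripts. The cluster is a known source of secondary siRNAs, started by the microRNA miR161 and by tasiRNAs whose own production starts with miR173. The mature sequences of these starters are shown because both ends of the pathway are measured below, the starter and the siRNAs. In them, and in all microRNA sequences below, capitals mark the seed, bases 2 to 8 (mature sequences from RefSeq, TAIR10.1, 5′ to 3′).
miR161.1 (MIR161, chromosome 1): uGAAAGUGacuacaucggggu
miR161.2 (MIR161, chromosome 1): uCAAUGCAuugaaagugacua
miR173-5p (MIR173, chromosome 3): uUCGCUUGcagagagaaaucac

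Of 23 listed PPR genes of this kind tested at 21 nt, 21 fell (91.3%, beside 0.774% over all loci), 0 rose and 2 did not pass. Their median log2 difference was -4.52 beside -0.08 over all loci. At 22 nt, 13 of 22 fell (59.1%, beside 0.581%), 3 rose (13.6%, beside 0.869%) and 6 did not pass, with a median of -1.90 beside -0.01. Their summed 21-nt reads were 156 to 328 normalized reads in the dcl4-2 libraries, against 15931 to 17460 in the Col-0 libraries. Their summed 22-nt reads were 627 to 765 in dcl4-2, against 3266 to 3705 in Col-0. Neither length overlapped between the groups. This list and the other listed gene groups below were drawn with earlier results of these data known. Their shares, set beside those over all loci, are therefore not independent evidence.

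AT1G62910 had 5.30, 4.46 and 20.9 normalized 21-nt reads in dcl4-2, against 2467, 2061 and 2138 in Col-0, 218-fold lower (log2 difference -7.93, adjusted p = 3.17e-33). Its 22-nt reads were 38.9, 40.1 and 64.3 in dcl4-2 and 319, 308 and 261 in Col-0, 6.19-fold lower (adjusted p = 6.17e-15). Both lengths fell at this gene, the shorter far more. AT1G62590 had 2.12, 2.23 and 2.32 normalized 21-nt reads in dcl4-2 and 725, 612 and 516 in Col-0, 278-fold lower. RPF3 had 8.48, 13.4 and 26.7 in dcl4-2 and 2263, 1865 and 1912 in Col-0 at this length, and RPF2 had 1.06, 3.35 and 6.95 in dcl4-2 and 702, 628 and 578 in Col-0. At 22 nt RPF3 fell 5.24-fold and RPF2 fell 5.90-fold.

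The genes of the cluster differed in how far the 22-nt reads fell. AT1G63400 lost 177-fold at 21 nt and 13.6-fold at 22 nt, where it had 27.6, 56.6 and 42.9 normalized reads in dcl4-2 and 600.4, 546 and 581 in Col-0. AT1G63080 lost 81.8-fold at 21 nt and 12.7-fold at 22 nt. AT1G63130 and AT1G63150 lost 152-fold and 140.0-fold at 21 nt, beside 4.11-fold and 3.36-fold at 22 nt. AT1G62860, annotated as a transcribed pseudogene, fell 11.6-fold at 21 nt, while its 22-nt reads of 73.7, 95.7 and 53.6 in dcl4-2 and 55.3, 46.9 and 37.6 in Col-0 did not pass. AT5G16640, on chromosome 5, had 0, 0 and 1.16 normalized 21-nt reads in dcl4-2, against 12.9, 32.6 and 24.8 in Col-0, and AT5G41170, also on chromosome 5, passed at neither length. AT1G63320, a PPR gene outside the list and named after its values were seen, fell to 0, 0 and 1.16 normalized 21-nt reads in dcl4-2, against 68.0, 52.2 and 56.8 in Col-0.

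The other listed PPR genes that passed also fell. AT1G63070 had 0, 3.35 and 9.27 normalized 21-nt reads in dcl4-2, against 959, 837 and 745 in Col-0, 201-fold lower. AT1G62914 lost 139-fold at 21 nt, AT1G63330 91.3-fold, AT1G12620 29.3-fold, AT1G12775 18.6-fold and AT1G63630 12.1-fold. AT1G63230 had 0, 1.12 and 0 normalized 21-nt reads in dcl4-2 and 20.7, 18.7 and 18.6 in Col-0. AT1G62720 and AT1G62680 had no 21-nt read in dcl4-2 and were at least 7.43-fold and 4.70-fold lower when dcl4-2 is allowed 3 reads in all. The AT1G62680 call ended in the 6 MS libraries alone, with a pseudocount of 0.1 and without any 1 library except Col-0 library 2. At 22 nt AT1G62914 lost 13.3-fold, AT1G63070 8.77-fold, AT1G63330 6.77-fold, AT1G63230 6.03-fold and AT1G12775 2.85-fold. The 22-nt calls of AT1G63230 and AT1G12775 ended in the 6 MS libraries alone, without a variance trend (a spread that varies with the mean level), with a pseudocount of 0.1 and without Col-0 library 1 or 3. The AT1G63230 call also ended without Col-0 library 2 or dcl4-2 library 2, and the AT1G12775 call without dcl4-2 library 1 or 3.

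Reads of 22 nt rose at 3 listed PPR genes. AT1G64583 had 51.2, 47.3 and 48.2 normalized 22-nt reads in dcl4-2 and 16.7, 22.4 and 13.6 in Col-0, 2.79-fold higher (adjusted p = 0.00147), and fell 4.45-fold at 21 nt. AT1G12300 rose 2.47-fold at 22 nt, a call that ended in the 6 MS libraries alone and without Col-0 library 1 or 2, and fell 7.84-fold at 21 nt. AT1G06580 had 23.5, 22.6 and 13.9 normalized 22-nt reads in dcl4-2 and 7.02, 0 and 5.23 in Col-0, and its 21-nt reads did not pass. These 3 rises ended without a variance trend, under which 20 of the 21 falls at 21 nt and 10 of the 13 falls at 22 nt still passed. Several of these genes are close copies of each other, so a read that fits more than 1 copy may have been counted at several, and the sources used here do not give the rule for such reads. Over all loci called, 8 at 21 nt and 4 at 22 nt shared all 6 values with another called locus.

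Among PPR genes by RefSeq description that are not on the list, 1 of 108 tested at 21 nt fell (AT1G63320) and 0 rose. That is 0.926%, near the 0.774% that fell over all loci. At 22 nt 2 of 146 fell (AT1G63320 and AT2G27229) and 0 rose, 1.37% beside 0.581% over all loci. The search by description found 279 PPR genes, 265 of them off the list, and so missed some of the 23 listed genes. It may have missed unlisted ones as well. Since the list was drawn with earlier results known, these shares do not show that the losses were confined to it.

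**Figure D2:**
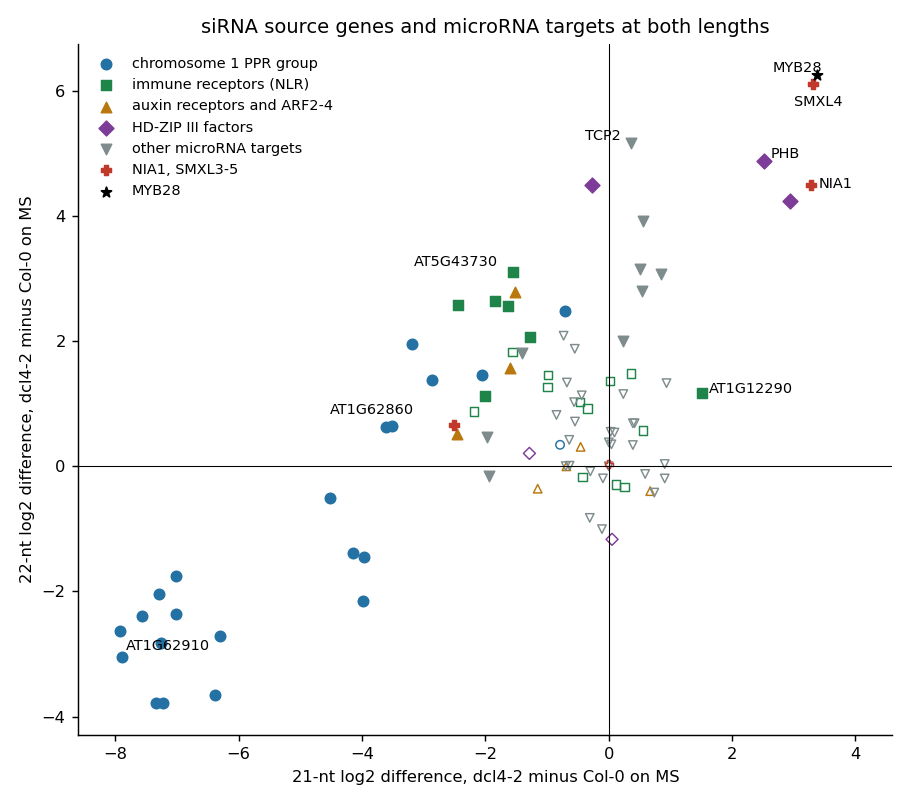
Log2 difference (dcl4-2 minus Col-0) of each gene of 7 gene groups at 21 nt (horizontal axis) and 22 nt (vertical axis), coloured and shaped by group, filled where the gene passed the test at either length and open where it passed at neither. AT1G62910 lies at -7.93 on the horizontal axis and most other PPR genes lie left of 0, with 13 of 22 fallen and 3 risen on the vertical axis, whereas the disease resistance genes that passed at both lengths lie left of 0 and above 0, and MYB28 lies high on both axes.

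Some genes for nucleotide-binding leucine-rich repeat (NLR) disease resistance receptors lost 21-nt reads and gained 22-nt reads. NLR transcripts are known sources of secondary siRNAs that begin at sites of 22-nt microRNAs such as miR472. The auxin receptor genes TIR1, AFB2 and AFB3 are known to form siRNAs after cleavage guided by miR393, another 22-nt microRNA, and ARF2, ARF3 and ARF4, which encode auxin response factors, are targets of the TAS3 tasiRNAs that start with miR390.
miR472-3p (MIR472, chromosome 1): uUUUUCCUacuccgcccauacc
miR393a-5p (MIR393a, chromosome 2): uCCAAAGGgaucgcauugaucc
miR390a-5p (MIR390a, chromosome 2): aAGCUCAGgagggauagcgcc

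Of 20 listed NLR genes tested at 21 nt, 5 fell (25%, beside 0.774% over all loci), 1 rose (5%, beside 0.5%) and 14 did not pass. Of the 20 tested at 22 nt, 5 rose (25%, beside 0.869% over all loci), 0 fell and 15 did not pass. Their median log2 difference was -0.80 at 21 nt and 1.22 at 22 nt, beside -0.08 and -0.01 over all loci. Their summed 22-nt reads were 2061 to 2152 normalized reads in the dcl4-2 libraries and 407 to 415 in the Col-0 libraries. Their summed 21-nt reads were 481 to 652 in dcl4-2 and 1547 to 1716 in Col-0.

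AT5G43740 had 85.8, 83.7 and 147 normalized 21-nt reads in dcl4-2, against 595, 568 and 521 in Col-0, 5.32-fold lower (adjusted p = 4.82e-13). Its 22-nt reads were 497, 532 and 655 in dcl4-2, against 83.4, 87.6 and 107 in Col-0, 6.06-fold higher (adjusted p = 9.3e-16). Its neighbour AT5G43730 had 179, 164 and 227 normalized 22-nt reads in dcl4-2 and 19.3, 24.4 and 19.9 in Col-0, 8.96-fold higher, and fell 2.98-fold at 21 nt. AT5G38850 had 1149.7, 1125 and 966 normalized 22-nt reads in dcl4-2 and 189, 186 and 169 in Col-0, 5.95-fold higher, and 290.3, 234 and 206 normalized 21-nt reads in dcl4-2 and 793, 749.9 and 715 in Col-0. AT1G51480 rose 6.47-fold at 22 nt and fell 3.80-fold at 21 nt, and AT5G63020 rose 4.23-fold at 22 nt. No library of these genes overlapped between the groups where they passed.

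The exception at 21 nt was AT1G12290, with 154, 68.0 and 108 normalized reads in dcl4-2 and 32.7, 35.4 and 40.3 in Col-0, 3.04-fold higher. The annotated MIR472 overlaps this gene, and MIR472 was itself listed at 0 in these libraries. The rise of AT1G12290 ended under the common microRNA total, and the 3.55-fold fall of AT1G63360 (adjusted p = 0.0467) ended in most alternatives. Among all NLR genes by description, 6 of 111 rose and 1 fell at 22 nt (5.41% and 0.901%, beside 0.869% and 0.581% over all loci). The pair outside the list was AT1G58807, 4.29-fold higher, and RLM3, 3.48-fold lower, both named after their values were seen. The AT1G58807 call ended in 7 of the alternatives. Without a variance trend 1 of the 5 listed falls at 21 nt still passed, and those that ended include AT5G38850 and AT5G43730. The 21-nt rise of AT1G12290 and the 22-nt calls of RLM3 and AT5G63020 also ended.

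Among the 7 auxin receptor and ARF2 to ARF4 genes, 3 fell at 21 nt (42.9%, beside 0.774% over all loci). At 22 nt 2 of them rose (28.6%, beside 0.869% over all loci). AFB2 had 12.7, 15.6 and 11.6 normalized 21-nt reads in dcl4-2 and 50.8, 40.1 and 36.2 in Col-0, 3.18-fold lower, and 25.6, 31.9 and 45.0 normalized 22-nt reads in dcl4-2 and 12.3, 11.2 and 8.36 in Col-0, 3.22-fold higher. ARF4 had 32.8, 41.1 and 41.8 normalized 22-nt reads in dcl4-2 and 2.63, 5.09 and 7.32 in Col-0, 7.69-fold higher (adjusted p = 7.36e-08), and fell 3.01-fold at 21 nt. AFB3 fell 5.62-fold at 21 nt, with 4.24, 12.3 and 5.79 normalized reads in dcl4-2 and 41.3, 43.8 and 40.3 in Col-0, and did not pass at 22 nt. TIR1, AFB1, ARF2 and ARF3 passed at neither length. Both AFB2 calls and the 21-nt call of ARF4 ended without a variance trend. The reads summed over the 7 genes were 109 to 158 in dcl4-2 and 53.5 to 65.2 in Col-0 at 22 nt, and 46.3 to 64.7 in dcl4-2 and 147 to 171 in Col-0 at 21 nt.

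Genes of the silencing machinery mostly did not pass, with 2 of 20 tested lower at 21 nt and 2 of 20 higher at 22 nt. These shares were 10% each, beside 0.774% lower at 21 nt and 0.869% higher at 22 nt over all loci. AGO1 encodes the main microRNA-binding Argonaute and is a target of miR168. It had 22.3, 10.0 and 32.4 normalized 21-nt reads in dcl4-2, against 83.5, 90.5 and 87.8 in Col-0, 4.04-fold lower (adjusted p = 2.67e-07), and 87.0, 50.4 and 78.2 normalized 22-nt reads in dcl4-2, against 36.0, 22.4 and 18.8 in Col-0, 2.79-fold higher (adjusted p = 0.000169). Both AGO1 calls ended without a variance trend (adjusted p = 0.0509 at 21 nt and 0.210 at 22 nt, the highest over their alternatives), and no other alternative ended them. AGO2, an Argonaute of antiviral defence and a target of miR403, rose at 22 nt to 43.0, 48.3 and 48.2 in dcl4-2, against 9.66, 3.06 and 7.32 in Col-0 (6.97-fold, adjusted p = 1.55e-08). AGO2 had 428, 444 and 694 normalized 21-nt reads in dcl4-2 and 348, 413 and 380.3 in Col-0, which did not pass. DCL1 fell 3.19-fold at 21 nt (adjusted p = 0.0237), a call that ended without a variance trend, with a pseudocount of 0.1 and without any 1 of the 3 Col-0 libraries or dcl4-2 library 1, and MIR838 lies within the gene.

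Some transcripts known to be cut by 21-nt microRNAs gained 22-nt reads. The class III HD-ZIP genes encode transcription factors that set leaf polarity, and miR165 and miR166, which share a seed, cleave them.
miR165a-3p (MIR165a, chromosome 1): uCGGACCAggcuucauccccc
miR166a-3p (MIR166a, chromosome 2): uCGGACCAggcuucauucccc
Of the 5 HD-ZIP III genes, 3 rose at 22 nt (60%, beside 0.869% over all loci) and 2 rose at 21 nt (40%, beside 0.5%). PHB had 96.2, 106 and 67.5 normalized 22-nt reads in dcl4-2, against 3.51, 2.04 and 1.05 in Col-0, 40.9-fold higher (adjusted p = 2.92e-12), and 12.7, 25.7 and 9.27 normalized 21-nt reads in dcl4-2 and 2.58, 4.66 and 0 in Col-0. The 21-nt call of PHB ended without a variance trend, with a pseudocount of 0.1 and without Col-0 library 3. PHV had 28.7, 27.8 and 31.1 normalized 22-nt reads in dcl4-2 and 0, 3.06 and 0 in Col-0, a ratio of 28.6 with a 95% counting interval of 9.89 to 148. REV had 41.0, 38.1 and 20.4 normalized 22-nt reads in dcl4-2 and 0, 2.04 and 0 in Col-0 (ratio 48.8, counting interval 13.8 to 429). ATHB15 and ATHB8 passed at neither length. Counting intervals cover counting error only.

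Of 39 other microRNA targets tested at 22 nt, 7 rose (17.9%, beside 0.869% over all loci), 0 fell and 32 did not pass. Their median log2 difference was 0.55, beside -0.01 over all loci. At 21 nt 3 of 40 fell (7.5%, beside 0.774% over all loci) and 0 rose. MET2, a DNA methyltransferase gene close to MET1 in sequence and a target of miR773, had 213, 188 and 166 normalized 22-nt reads in dcl4-2 and 26.3, 29.5 and 23.0 in Col-0, 7.19-fold higher (adjusted p = 1.6e-12). TCP2, a leaf growth regulator targeted by miR319, had 23.5, 20.6 and 176 in dcl4-2 and 0, 0 and 1.05 in Col-0. Its highest library was dcl4-2 library 3, and all 3 dcl4-2 libraries lay above Col-0. Its log2 difference was 5.16, and 4.18 without that library. The auxin response factor genes ARF6 and ARF8, targets of miR167, had 17.4, 22.6 and 39.6 normalized 22-nt reads (ARF6) and 12.3, 16.5 and 26.8 (ARF8) in dcl4-2, against 5.27, 3.06 and 0 (ARF6) and 0.878, 0 and 0 (ARF8) in Col-0.

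ARF10, a target of miR160, had 14.3, 16.5 and 11.8 normalized 22-nt reads in dcl4-2 and 0.878, 2.04 and 0 in Col-0. The GRAS family genes HAM1 and HAM2, targets of miR171, rose 4.42-fold and 3.90-fold at 22 nt, calls that ended without a variance trend. HAM2 also fell 2.31-fold at 21 nt (adjusted p = 0.0262), a call that ended in the 6 MS libraries alone, without a variance trend, with a pseudocount of 0.1 and without Col-0 library 2 or 3 or dcl4-2 library 3. PHO2, a regulator of phosphate uptake targeted by miR399, fell 5.39-fold at 21 nt, to 3.18, 1.12 and 1.16 normalized reads in dcl4-2, against 13.8, 8.39 and 7.23 in Col-0, a call that also ended without a trend. APS4, an ATP sulfurylase gene targeted by miR395, had 1.06, 1.12 and 0 normalized 21-nt reads in dcl4-2 and 6.02, 2.80 and 8.27 in Col-0 (log2 difference -1.94, adjusted p = 0.0388). The APS4 call ended in the 6 MS libraries alone, with no filter, without a variance trend, under both other pseudocounts and without Col-0 library 1 or 3 or dcl4-2 library 3. Summed over the listed targets, 22-nt reads were 415 to 554 in dcl4-2 and 87.6 to 96.6 in Col-0. LCR, an F-box gene targeted by miR394 and named after its values were seen, had 11.3, 12.3 and 13.9 normalized 22-nt reads in dcl4-2 and 1.76, 2.04 and 0 in Col-0, 9.90-fold higher.

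Genes that the study's field links to 22-nt siRNAs were NIA1 and NIA2, which encode nitrate reductase, and SMXL3, SMXL4 and SMXL5, which act in phloem formation. They were chosen with their reported 22-nt siRNAs in mind, so their direction is not independent evidence. NIA1 had 1091, 2152 and 254 normalized 22-nt reads in dcl4-2, against 24.6, 54.0 and 35.5 in Col-0, 30.6-fold higher (adjusted p = 7.76e-14). At 21 nt it had 506, 299 and 77.6 in dcl4-2 and 27.5, 22.4 and 18.6 in Col-0, 12.9-fold higher (adjusted p = 3.39e-10). NIA1 varied widely among the dcl4-2 libraries, with library 3 lowest at both lengths and still above Col-0. The 22-nt log2 difference of NIA1 was 4.50, and 5.37 without that library. NIA2 was not recovered in every group and was not tested. It had 76.8, 105 and 317 normalized 22-nt reads in dcl4-2 and 61.4, 94.7 and 57.5 in Col-0, and the groups overlapped.

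SMXL4 had 66.5, 279 and 199 normalized 22-nt reads in dcl4-2, against 0.878, 2.04 and 1.05 in Col-0, 138-fold higher (adjusted p = 4.18e-16). At 21 nt it had 50.9, 20.1 and 59.1 in dcl4-2 and 6.02, 3.73 and 1.03 in Col-0, 12.1-fold higher. SMXL5 had 1.06, 0 and 10.4 normalized 21-nt reads in dcl4-2 and 13.8, 15.9 and 16.5 in Col-0, 4.02-fold lower (adjusted p = 0.0128), a call that ended in 8 of the alternatives, and did not pass at 22 nt. SMXL3 passed at neither length. MYB28, a regulator of glucosinolate synthesis, had 242, 213 and 467 normalized 22-nt reads in dcl4-2, against 0.878, 3.06 and 6.27 in Col-0, 90.3-fold higher (adjusted p = 1.88e-17). At 21 nt it had 32.8, 52.4 and 83.4 in dcl4-2 and 4.30, 7.46 and 2.07 in Col-0, 12.2-fold higher. NIA1, SMXL4 and MYB28 thus had more reads of both lengths in the mutant, where the NLR genes AT5G43740 and AT5G38850 had fewer 21-nt and more 22-nt reads.

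**Figure D3:**
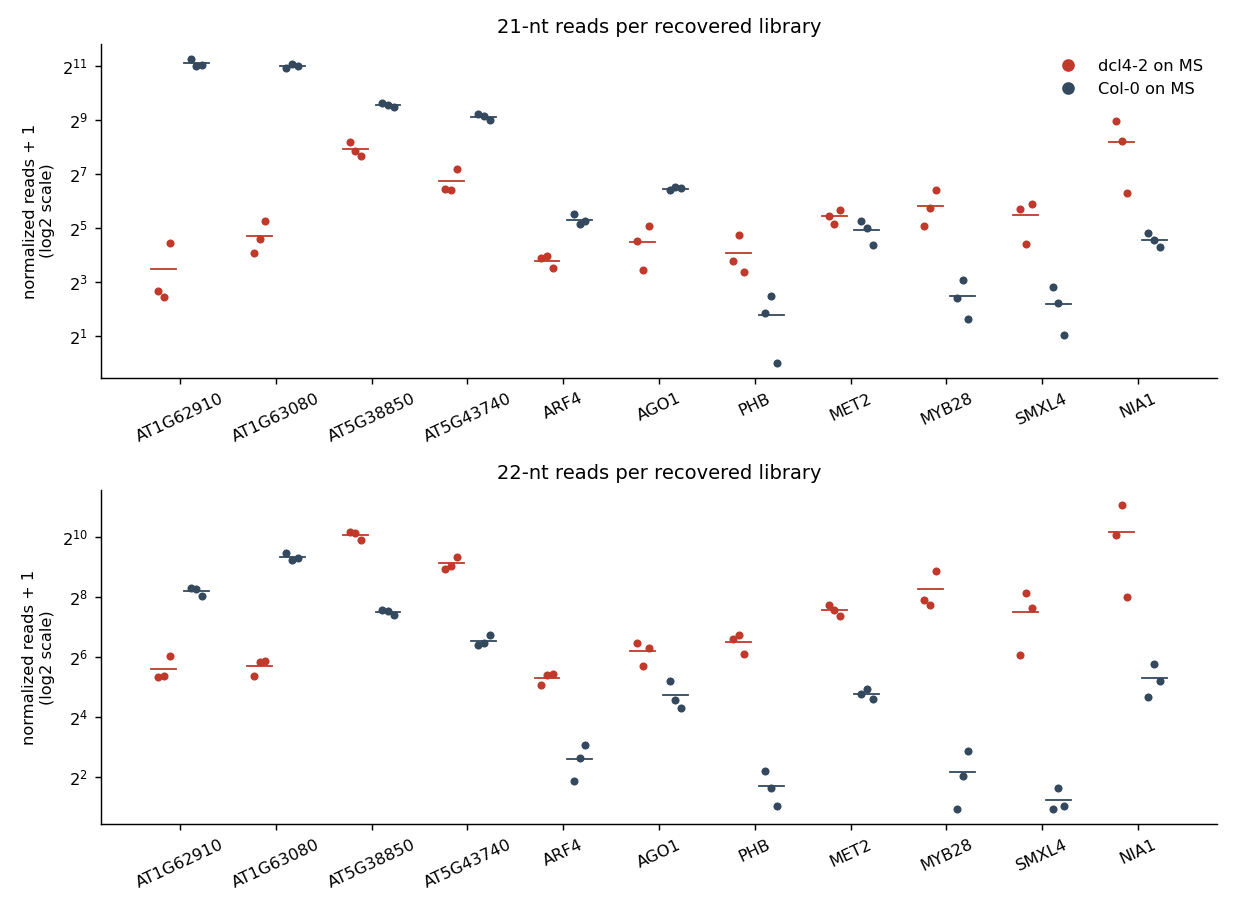
Normalized reads + 1 on a log2 axis of each recovered library at 11 loci, 21 nt and 22 nt, with a line at each group mean and dcl4-2 left of Col-0. At AT1G62910 the dcl4-2 points lie below the Col-0 points at both lengths, at AT5G43740 they lie below at 21 nt and above at 22 nt, and at NIA1, SMXL4 and MYB28 they lie above at both lengths.

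Of the 25 genes of nitrogen and sulfur use, 22 were tested at 21 nt and 23 at 22 nt. NIA1 and MYB28, both described above, were the 2 that rose at each length, and 0 fell. The shares that rose were 9.09% at 21 nt and 8.70% at 22 nt, beside 0.5% and 0.869% over all loci. The chloroplast genome gave 6 calls among 87 genes at 21 nt and 4 among 87 at 22 nt, named here after their values were seen. ATCG00640, ATCG00650, ATCG00700 and ATCG00740 were 2.58-fold to 3.17-fold lower at 21 nt, and ATCG00840 and ATCG01300 were 2.05-fold higher. The last 2 have identical values at both lengths, so their calls are not independent. At 22 nt ATCG00640, ATCG00650, ATCG00840 and ATCG01300 were 1.61-fold to 1.91-fold higher. Of the mitochondrial genes, 1 of 116 tested at 21 nt fell (0.862%, beside 0.774% over all loci), which was ATMG00180 at 2.77-fold. At 22 nt 3 of 118 rose (2.54%, beside 0.869% over all loci), which were ATMG00180, ATMG00520 and ATMG01200 at 2.10-fold to 2.58-fold. Under the common microRNA total, 0 of the chloroplast rises still passed, and without a variance trend 0 of the organelle calls did. The ATMG00520 call also ended in the 6 MS libraries alone and without Col-0 library 2 or 3 or dcl4-2 library 3. No nuclear photosynthesis gene of 20 tested passed at either length in limma. The unadjusted limma p was under 0.05 for 4 of 20 at 21 nt and 9 of 20 at 22 nt. These shares were larger than those over all loci, which were 9.77% at 21 nt and 10.2% at 22 nt. The photosynthesis genes had median log2 differences of -0.46 at 21 nt and -0.73 at 22 nt. Of the 20, 7 at 21 nt and 9 at 22 nt lay below Col-0 without overlap and 0 lay above. Over all loci tested, 6.93% at 21 nt and 6.09% at 22 nt lay below without overlap, and 5.12% and 5.82% lay above. The 1 tested TAS1 or TAS2 target outside the PPR list and the 2 tested MYB genes of anthocyanin synthesis passed at neither length.

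The other large changes had no common family. At 22 nt AT3G62200, annotated as a putative endonuclease or glycosyl hydrolase, had 26.6, 44.2 and 58.9 normalized reads in dcl4-2, against 0.878, 0 and 0 in Col-0. The FHA domain gene emb1967 had 22.5, 33.9 and 47.2 in dcl4-2 and 1.76, 0 and 0 in Col-0, and the homeodomain-like gene AT2G03500 had 20.5, 29.8 and 21.4 in dcl4-2 and 0.878, 1.02 and 0 in Col-0. The transcribed pseudogene AT2G32291 fell 19.1-fold at 22 nt, AT1G25180 fell 16.3-fold and the glycine-rich protein gene AT5G42635 fell 9.17-fold. AT2G27229, a PPR gene outside the cluster, had no 22-nt read in dcl4-2 and 6.14, 12.2 and 9.41 normalized reads in Col-0, at least 8.90-fold lower when dcl4-2 is allowed 3 reads in all. At 21 nt AT3G22955 had 7.42, 10.0 and 11.6 in dcl4-2 and no read in Col-0, at least 10.3-fold higher, and the transcribed pseudogene AT4G09584 had 11.7, 16.7 and 190.0 in dcl4-2 and 0, 0.933 and 3.10 in Col-0. AT2G13590 rose at 21 nt (log2 difference 3.19), a call that ended without dcl4-2 library 3 (2.03, adjusted p = 0.0502). AT3G43420 and AT1G24851 were also among the 10 largest falls at 22 nt. The log2 difference of AT1G24851 was -2.98 (adjusted p = 5.10e-05), and -1.98 without dcl4-2 library 3.

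Some 21-nt falls outside the lists were named after their values were seen. AT4G18670, a leucine-rich repeat family gene, had 9.54, 16.7 and 2.32 normalized 21-nt reads in dcl4-2, against 182, 193 and 168 in Col-0, 19.0-fold lower (adjusted p = 1.82e-12). PKS1, a phytochrome kinase substrate, had 2.12, 3.35 and 1.16 in dcl4-2 and 38.7, 39.2 and 31.0 in Col-0, 16.4-fold lower. The glucosyltransferase gene UGT84A3 fell 13.4-fold, to 2.12, 3.35 and 4.63 in dcl4-2, against 43.0, 51.3 and 41.3 in Col-0.

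MicroRNA genes mostly rose or did not pass, and MIR822 was the exception. It is known as a young microRNA whose long hairpin is cut by DCL4 rather than DCL1, as is MIR839. Their mature products, and that of the other microRNA gene that fell, are shown for that reason.
miR822-5p (MIR822, chromosome 5): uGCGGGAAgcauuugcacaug
miR822-3p (MIR822, chromosome 5): uGUGCAAAugcuuucuacagg
miR839-5p (MIR839, chromosome 1): uACCAACCuuucaucguuccc
miR857 (MIR857, chromosome 4): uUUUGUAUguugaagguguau
MIR822 had 28.6, 32.3 and 35.9 normalized 21-nt reads in dcl4-2, against 149.7, 125 and 144 in Col-0, 4.32-fold lower (adjusted p = 4.38e-09). At 22 nt it had 3.07, 3.09 and 3.21 in dcl4-2 and 44.8, 24.4 and 28.2 in Col-0, 10.4-fold lower (adjusted p = 1.55e-08). No alternative ended either call. The gene overlaps AT5G03553 in the annotation.

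MIR839 fell at 22 nt, to 0, 2.06 and 0 normalized reads in dcl4-2, against 3.51, 7.13 and 5.23 in Col-0 (adjusted p = 0.0104). MIR857 had 2.05, 1.03 and 10.7 normalized 22-nt reads in dcl4-2 and 23.7, 16.3 and 22.0 in Col-0, 4.49-fold lower (adjusted p = 0.00332). The MIR839 call ended in the 6 MS libraries alone, with a pseudocount of 5 and without Col-0 library 2 or 3 or dcl4-2 library 1. The MIR857 call ended with a pseudocount of 0.1 and without Col-0 library 1 or dcl4-2 library 2, and both calls ended without a variance trend. Neither gene passed at 21 nt.

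The 41 microRNA genes that rose at 21 nt summed to 34775, 32820 and 22463 normalized reads in dcl4-2 and 12487, 11928 and 11751 in Col-0. Here too the genes were selected as higher in the same libraries. Over the 122 tested at this length the median log2 difference was 0.66, beside -0.08 over all loci. MIR390a, which starts the TAS3 pathway, had 4195, 4249.9 and 2017 in dcl4-2, against 922, 939 and 1053 in Col-0, 3.59-fold higher (adjusted p = 1.44e-13), and MIR390b rose 3.74-fold. The miR160 genes, which target auxin response factors, had their lowest dcl4-2 value in library 3. MIR160a had 1848, 1578 and 364 in dcl4-2 and 142, 347 and 258 in Col-0, and MIR160c had 1925, 1673 and 457 in dcl4-2 and 217, 395 and 305 in Col-0. MIR160b, with 704, 616 and 49.8 in dcl4-2 and 37.9, 75.6 and 22.7 in Col-0, overlapped between the groups.
miR160a-5p (MIR160a, chromosome 2): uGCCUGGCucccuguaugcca
miR168a-5p (MIR168a, chromosome 4): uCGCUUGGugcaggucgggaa
miR400 (MIR400, chromosome 1): uAUGAGAGuauuauaagucac

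Of the miR156 family, which holds back the change from juvenile to adult leaves, MIR156f had 1985, 2424 and 739 normalized 21-nt reads in dcl4-2 and 443, 361 and 375 in Col-0, 4.37-fold higher, and MIR156a, b, c and e rose 1.94-fold to 3.12-fold. MIR393a, whose product is shown above, had 200.3, 174 and 138 in dcl4-2 and 59.4, 51.3 and 61.0 in Col-0, 2.98-fold higher. MIR400, a microRNA directed at PPR genes, had 1390.1, 1276 and 1314 in dcl4-2 and 668, 584 and 661 in Col-0, 2.08-fold higher. MIR168a, which acts on AGO1, had 3569, 3710.0 and 3231 in dcl4-2 and 2014, 1571 and 1985 in Col-0, 1.89-fold higher. The sulfate-linked MIR395 genes rose 2.39-fold to 5.16-fold, though several hold identical values. MIR836 had 29.7, 11.2 and 4.63 in dcl4-2 and 0.860, 0 and 0 in Col-0.

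The rises at 21 nt also took in other known families. MIR164a and MIR164b, which act on NAC transcription factors, rose 2.42-fold and 2.23-fold, and MIR171b and MIR171c, which act on the HAM genes, rose 3.91-fold and 4.69-fold. MIR157c rose 2.09-fold, MIR158b 3.22-fold, MIR167c 2.62-fold and MIR169a 3.30-fold. MIR319c, which acts on TCP genes, rose 2.29-fold with groups that overlap, and its call ended with a filter at 5, under the common microRNA total, without a variance trend, with a pseudocount of 0.1 and without Col-0 library 1 or 3 or dcl4-2 library 1 or 2. MIR823, MIR829, MIR844, MIR858a, MIR861, MIR865 and MIR869 rose 1.97-fold to 3.38-fold.

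These rises depended on scaling. Under the common microRNA total, 6 of the 21-nt rises turned into small negative differences, which were -0.32 for MIR168b, -0.057 for MIR837, -0.039 for MIR168a, -0.037 for MIR825, -0.035 for MIR164c and -0.033 for MIR156a on the log2 scale. Over the alternatives, 11 of the 41 rises at 21 nt still passed under that scaling, 1 without a variance trend and 31 to 40 with any 1 library of the MS groups left out. At 22 nt 9 of the 17 rises still passed under that scaling, 2 without a variance trend, 7 in the 6 MS libraries alone, and 9 (without Col-0 library 1) to 14 (without dcl4-2 library 3) with any 1 library left out. MIR838, whose precursor lies within DCL1, had 36.0, 32.3 and 23.2 normalized 21-nt reads in dcl4-2 and 7.74, 14.9 and 16.5 in Col-0 and did not pass (adjusted p = 0.0778).

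At 22 nt 17 of 135 microRNA genes rose (12.6%) and 3 fell (2.22%). MIR843 had 24.6, 16.5 and 57.9 normalized 22-nt reads in dcl4-2, against 1.76, 2.04 and 2.09 in Col-0, 16.8-fold higher (adjusted p = 1.51e-06), and no alternative ended this call. Its 21-nt reads were not recovered in dcl4-2, and the authors' deposited means were 4683 in dcl4-2 and 207 in Col-0.
miR843 (MIR843, chromosome 3): uUUAGGUCgagcuucauugga
MIR165a had 655, 766 and 679 normalized 22-nt reads in dcl4-2 and 419.6, 382 and 387 in Col-0, 1.77-fold higher. MIR775 rose 2.49-fold at 22 nt and 2.81-fold at 21 nt. MIR156a, MIR156b, MIR156c, MIR156e and MIR156f rose 1.54-fold to 5.24-fold at 22 nt, and MIR160a and MIR160c rose 3.30-fold and 2.68-fold. MIR167d, MIR396b, MIR829, MIR845b, MIR848 and MIR869 rose 1.46-fold to 2.74-fold. MIR169m had 4.10, 3.09 and 5.36 normalized 22-nt reads in dcl4-2 and 0.878, 0 and 0 in Col-0, and its call ended in the 6 MS libraries alone, with no filter, with a pseudocount of 0.1 and without Col-0 library 2 or 3.

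The most abundant microRNA genes could not be split into libraries and carry no test. In the authors' deposited means, MIR161 had 206940.1 normalized 21-nt reads in dcl4-2 and 110702 in Col-0, and MIR159a had 85012 in dcl4-2 and 58655 in Col-0. MIR173 had 15705 in dcl4-2 and 8877 in Col-0. The 15 largest of these means were 1.14 to 2.19 times as high in dcl4-2 as in Col-0. MIR393b, also given only as the authors' deposited means, had 9569 in dcl4-2 and 2437 in Col-0. The deposited means of the starter genes MIR161 and MIR173 were not lower in dcl4-2, and their part in the PPR result was not tested. The whole microRNA class, as a share of the library rather than on the locus scale, was 1.30-fold higher at this length.

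**Figure D4:**
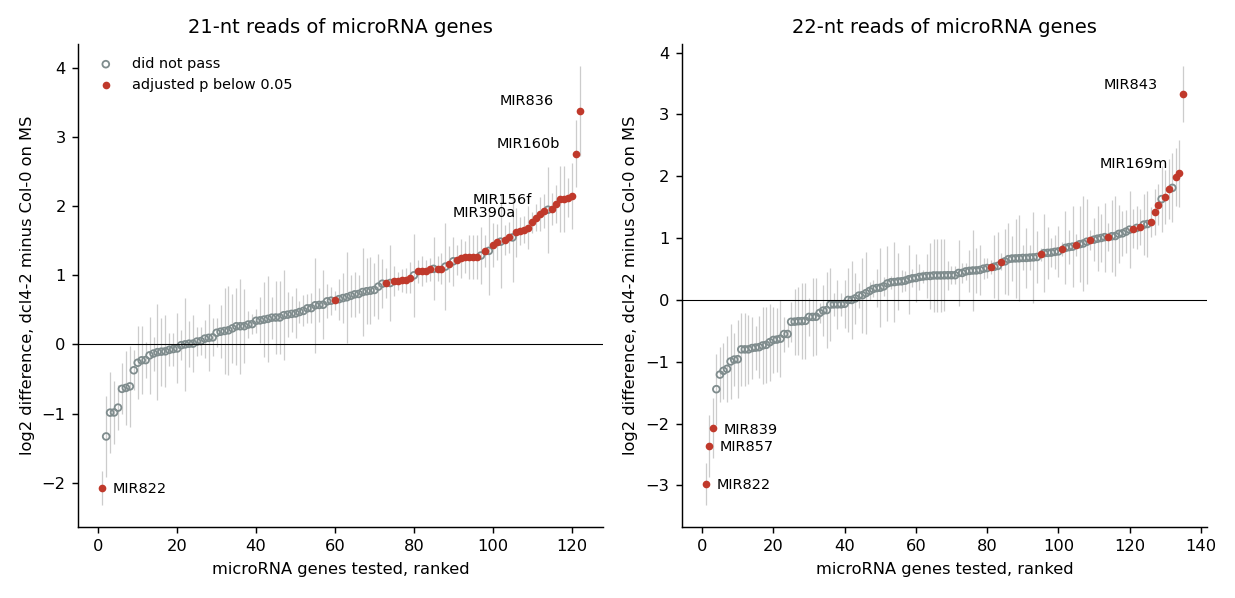
Log2 difference (dcl4-2 minus Col-0) of the 122 microRNA genes tested at 21 nt and the 135 tested at 22 nt, ranked, with bars for the standard error and filled points for genes that passed the test. Most genes lie above 0 at 21 nt, and MIR822, the gene that fell at 21 nt, lies at the low end in both panels.

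Among single RefSeq pseudogenes more rose than fell at each length, and most of the gain in reads lay in 1 library. The authors' pseudogene class, with 594 to 667 rpm at 22 nt in dcl4-2, held fewer reads than the 98 risen loci alone. That class therefore does not count the same reads, and its fall at 21 nt cannot be set against these loci. At 22 nt 98 pseudogenes were higher, with summed normalized reads of 4796, 7473 and 33088 in dcl4-2 and 2518, 2537 and 2439 in Col-0, and 86 of the 98 were highest in dcl4-2 library 3. Without that library 44 of the 98 still passed. At 21 nt 35 pseudogenes were higher (0.888% of 3942) and 14 lower (0.355%), and the higher ones summed to 1068, 699 and 5462 in dcl4-2 and 351, 368 and 381 in Col-0. Of these 35, 30 were highest in library 3 and 8 still passed without it. By contrast, 107 of the 130 protein-coding loci lower at 21 nt, 45 of the 53 higher at 22 nt and 40 of the 41 microRNA genes higher at 21 nt still passed without library 3. Whether this library is one of the dcl4-2 replicates that were high in 22-nt intergenic reads cannot be told. It could also be replicate 1, which was highest in transposable element reads at both lengths. Replicate 1 had the fewest reads of the dcl4-2 replicates on MS (6319663), and library 3 had the smallest size factor at both lengths. Whether they are the same library was not tested. Nor was the part of the intergenic or transposable element differences in the pseudogene result.

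**Figure D5:**
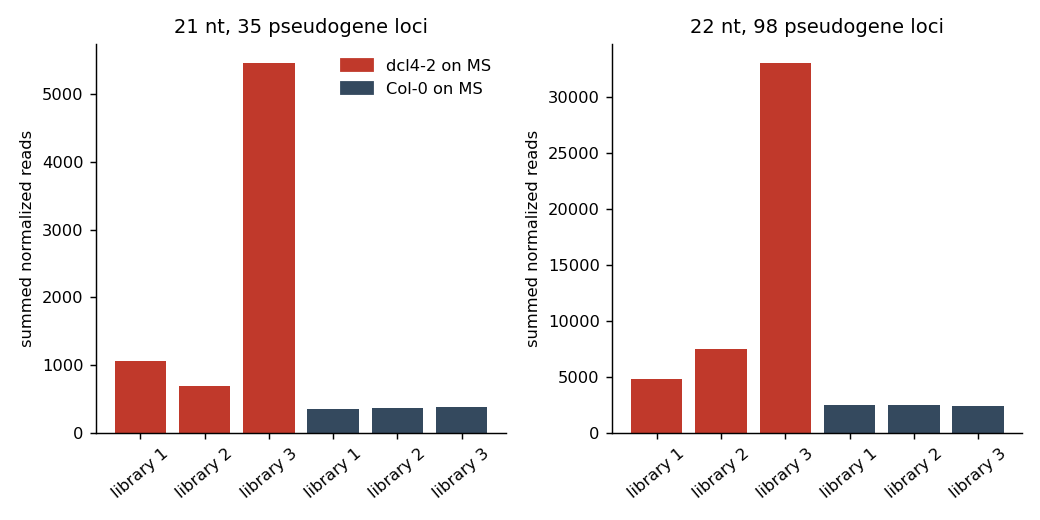
Summed normalized reads per recovered library of the 35 pseudogene loci higher at 21 nt and the 98 higher at 22 nt, dcl4-2 left of Col-0. Library 3 of dcl4-2 reaches 5462 at 21 nt and 33088 at 22 nt, and the other dcl4-2 libraries stand above Col-0 by much less.

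Among these pseudogenes, 5 on chromosome 5 overlap the annotated genes of the miR854 family, which lie in retrotransposon sequence, and were named after their values were seen. All 5 mature products have the same sequence, shown because a single read of it cannot be placed at 1 copy.
miR854a (chromosome 5): gAUGAGGAuagggaggaggag
AT5G31719, over MIR854d, had 131, 239.7 and 2636 normalized 22-nt reads in dcl4-2, against 54.4, 55.0 and 72.1 in Col-0, 16.6-fold higher (adjusted p = 6.36e-05). AT5G32197, over MIR854c, had 66.5, 169.7 and 1458 in dcl4-2 and 21.1, 31.6 and 22.0 in Col-0, 22.7-fold higher (adjusted p = 9.45e-06). AT5G29975, AT5G32228 and AT5G32306 were 11.6-fold to 18.8-fold higher at 22 nt. In each of the 5, library 3 was far the highest, libraries 1 and 2 also lay above Col-0, and the 22-nt call ended without a variance trend. The 21-nt rises of 4 of the 5 ended without library 3. Without that library the 22-nt log2 difference of AT5G32228 was 1.93, against 3.16 with it. AT4G06517, a pseudogene outside this family, had 89.1, 175 and 1734 normalized 22-nt reads in dcl4-2 and 21.1, 43.8 and 33.5 in Col-0. Its 21-nt rise (log2 difference 2.54) did not pass without library 3 (1.38, adjusted p = 0.0850). At AT5G32228, where the 21-nt call held without library 3, 21-nt reads were 45.6, 20.1 and 368 in dcl4-2 and 9.46, 8.39 and 9.30 in Col-0.

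The genotype difference was also set against the same difference on MS-N, by the interaction in the same fits. Of the 28 class values, 15 differed between the media (53.6%), and of the 14 class ratios 5 did (35.7%). On MS-N the tasiRNA class had means of 2675 rpm in dcl4-2 and 45790.4 rpm in Col-0 at 21 nt, and of 12530.4 rpm in dcl4-2 and 2859 rpm in Col-0 at 22 nt. The log2 fall at 21 nt was thus -4.55 on MS and -4.09 on MS-N, and the log2 rise at 22 nt 2.47 on MS and 2.13 on MS-N. Exon reads at 22 nt had means of 26356 rpm in dcl4-2 and 9898 rpm in Col-0 on MS-N, 2.66-fold higher, where the rise on MS was 1.30-fold. Reads of tRNAs, at 21 nt 1.25-fold lower in dcl4-2 on MS, had means of 3811 rpm in dcl4-2 and 2000.5 rpm in Col-0 on MS-N.

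Among single loci 86 differed between the media at 21 nt (0.444%) and 425 at 22 nt (2.11%). These counts moved between 0 and 298 at 21 nt and between 2 and 724 at 22 nt over the alternatives, and the 21-nt count was 1 without Col-0 library 3 and 222 without dcl4-2 library 3. AT5G43740 lost more 21-nt reads on MS (log2 difference -2.45) than on MS-N (-0.97), and MYB28 gained more 22-nt reads on MS (6.25) than on MS-N (4.05). For the PPR gene AT1G62910 and for NIA1, SMXL4 and PHB, the interaction passed at neither length, which does not show that the effects were alike.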

How the data were processed

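Small RNA libraries of 12 seedling samples in 4 groups were sequenced single-end at 50 bases, per the labels' protocols. Bowtie 1.2.2, SAMtools 1.9 and the TAIR10 build are named in the submitters' processing notes, and how reads that match several loci were counted is not given in the sources used here. The class table holds RPM values per library, as deposited, in 14 classes at 2 lengths. Since tasiRNA reads are counted under exons too, sums used the other 13 classes. The gene tables hold a normalized signal per locus, as the authors deposited it, 1 mean per group and length, called TPM in the file headers. The values are multiples of a step per group and library, so each mean was split into the whole reads of its 3 libraries. On simulated means 18729 of 18729 loci at 21 nt and 18737 of 18737 at 22 nt were split correctly. Recovered libraries are numbered by size factor and carry no replicate label, and the 2 gene tables were scaled separately, so tests stayed within a table.

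Loci that reached 1 normalized read in 3 or more of the 12 libraries entered limma 3.58.1 (R 4.3.3). The scale was log2(normalized reads + 1), with a mean-variance trend and a mean per group over all 12 libraries, contrast dcl4-2 on MS minus Col-0 on MS, and Benjamini-Hochberg adjustment at 0.05. Class values were tested the same way on log2(RPM) without a trend, and so were log2 ratios of 22-nt to 21-nt reads. On simulated libraries, the 21-nt step on 19386 loci recovered 62% of 4-fold and 100% of 8-fold rises and 50% and 76% of such falls. The 22-nt step on 20148 loci recovered 80% and 100% of rises and 44% and 74% of falls. The changed loci were drawn only from those with several reads in Col-0 on MS. All groups were simulated from the Col-0 means on MS with the same fixed spread. The rates therefore do not cover loci with fewer reads or libraries that vary more. Where a group had no read, its fold was taken at 3 reads for that group, and ratios resting on 1 to 3 reads have an exact 95% counting interval. The fewest reads behind a class value were 183, and intervals and floors cover counting error only.

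Gene names came from RefSeq (TAIR10.1), which matched 31722 of 32420 loci. Its coordinates are not printed, since the build of the files is named only as TAIR10. The genes named are, at each length, the 10 largest falls and 10 largest rises with libraries that do not overlap, every member of the gene lists that passed with members completing small families, DCL4, up to 15 abundant loci without recovered libraries, and microRNA genes that passed. The lists cover secondary siRNA sources (PPR, NLR, auxin genes), targets of TAS1 and TAS2, HD-ZIP III and other microRNA targets, silencing, anthocyanin MYB, nitrogen and sulfur, photosynthesis, organelle and microRNA genes. The members and lists were chosen with earlier results of these data known. TAS loci are not rows of the gene tables and are seen only in the tasiRNA class. The alternatives changed the pseudocount, the low-value filter, the scaling, the variance trend, the libraries in the fit, a replicate block for class values, and left out each library of the MS groups in turn.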

Additional observations from a re-analysis of the deposited data

Results flagged for a closer look

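The values here are differences on the log2 scale between the genotype difference on MS and that on MS-N, each past an adjusted p of 0.05 in limma's interaction test, and no explanation was weighed for any of them.

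For class reads at 21 nt, the genotype difference on MS was lower than on MS-N for tRNA (-1.25), snoRNA (-0.93), intergenic regions (-0.88), 5′ untranslated regions (-0.51), 3′ untranslated regions (-0.51), exons (-0.47) and tasiRNA (-0.45). For intergenic reads the direction differed between the media, with log2 differences of -0.37 on MS and 0.51 on MS-N, and for tRNA reads likewise, with -0.32 on MS and 0.93 on MS-N. At 22 nt it was lower on MS for snoRNA (-1.05), exons (-1.03), tRNA (-1.02), rRNA (-0.86), 5′ untranslated regions (-0.85) and snRNA (-0.67), and higher on MS for transposable elements (0.54) and tasiRNA (0.34).

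For the ratio of 22-nt to 21-nt reads, the difference was higher on MS for intergenic regions (1.26), tasiRNA (0.79) and 3′ untranslated regions (0.19), and lower for exons (-0.57) and 5′ untranslated regions (-0.34). For intergenic 22-nt reads, dcl4-2 replicates 2 and 3 on MS stood apart from replicate 1.

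Among the named loci at 21 nt, the difference was higher on MS for MIR836 (3.64) and MIR156f (1.38) and lower for AT5G43740 (-1.48). At 22 nt it was higher on MS for TCP2 (3.005), MYB28 (2.20) and MIR156b (0.85), and lower for MIR857 (-4.27), SMXL5 (-3.52), MIR845b (-2.01) and MIR168a (-0.80). SMXL5 had a log2 difference of 0.65 on MS and 4.18 on MS-N, and MIR857 of -2.36 on MS and 1.91 on MS-N.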

How the results depend on the processing

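The count of loci that differed was 247 at 21 nt and moved to 2014 when every library was given the same microRNA total and to 86 without a variance trend. The 22-nt count was 292 and moved to 447 and 78 under the same settings and to 190 with a pseudocount of 0.1. Leaving out 1 library at a time gave 174 to 260 loci at 21 nt and 206 to 325 at 22 nt. The interaction with nitrogen called 86 loci at 21 nt, and 298 with a filter at 5, 34 with no filter, 0 without a trend, 7 with a pseudocount of 0.1, 230 with a pseudocount of 5 and 266 with trimmed-mean scaling, and 1 (without Col-0 library 3) to 222 (without dcl4-2 library 3) with 1 library left out. At 22 nt it called 425, and 2 without a trend, 148 with a pseudocount of 0.1 and 724 with trimmed-mean scaling, and 176 (without Col-0 library 2) to 578 (without dcl4-2 library 3) with 1 library left out. Class values gave 18 calls (17 to 23 with 1 library left out) and 15 interaction calls (11 to 17). Ratios gave 5 calls, 3 in the 6 MS libraries alone and 4 to 10 with 1 library left out, 10 of them without dcl4-2 replicate 1, and 5 interaction calls (5 to 7). Of the values of single named loci under all settings, 2788 kept their direction and side of the threshold, 306 were no longer past it, 15 came past it and 6 reversed. The reversed ones, under the common microRNA total, were the 21-nt differences of MIR168b (-0.32), MIR837 (-0.057), MIR168a (-0.039), MIR825 (-0.037), MIR164c (-0.035) and MIR156a (-0.033). The cause of these moves was not tested, except that the common microRNA total lowers them by construction. With the replicate number as a block, 18 of the 28 class values passed. Same-numbered dcl4-2 and Col-0 replicates had correlations of -0.18, -0.24 and 0.42 of their deviations, so the numbers were not taken as pairs. Locus values could not be fitted with a block, since their columns carry no replicate number. The planned edgeR tests were not run, since no deposited column holds counts. At loci near 1 read a library the depth limits what can be called, and simulated falls were recovered less often than rises.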
